A study of Rattus norvegicus with 10 samples.

Results

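NRF2, encoded by Nfe2l2, is the transcription factor that switches on antioxidant and detoxifying genes, and this account follows it, its inhibitor Keap1 and 8 enzymes of the same defence in DMBA-induced rat mammary tumours. The 10 genes were listed by name, and each was read by the probe set that the platform annotation gives to that gene alone, with the highest mean log2 signal where there were several. All 10 had such a probe set and passed the filter on dim probe sets, out of 10793 genes that passed it. The rats were female Sprague-Dawley animals given a dose of 100 mg/kg of DMBA, a polycyclic hydrocarbon carcinogen, by mouth. Each of 5 tumours, called 31D3, 32D1, 37I1, 50I1 and 52I4, gave a total tumour at 19 weeks of age and, as its reference, a needle biopsy of 0.7 cm by 2.5 mm at 12 weeks, when it measured 2 cm3. The sample labels call the late sample the total tumour while the series text calls it a needle (trucut) sample, and the sample labels were followed. All 10 samples carried the DMBA treatment and no other, so no normal mammary gland and no rat without DMBA enters any comparison. Each sample had its own Affymetrix rat expression array, and late and early samples of one tumour were compared.

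In resting cells KEAP1 holds NRF2 in the cytoplasm and hands it to a ubiquitin ligase for destruction. Electrophiles and oxidants modify cysteines of KEAP1, after which NRF2 enters the nucleus, pairs with a small MAF protein and binds antioxidant response elements before genes that make glutathione, recycle thioredoxin and glutathione, reduce quinones and break down haem. Several of these enzymes also act on the quinones and epoxides that cells form from polycyclic hydrocarbons such as DMBA. NRF2 is controlled mainly through its protein, which an expression array does not measure.

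The core of the antioxidant response element, TGACNNNGC on either strand, was searched in RefSeq promoter sequences of build GRCr8. Each sequence ran from 250 bases before to 50 after the start assigned to that promoter. For the matches in Gstp1, Nfe2l2 and Txnrd1 this start lies inside the span of the gene. Of the 10 genes, 8 had a promoter in that table, all but Hmox1 and Gsr, with 9 promoters between them. A match lay in 4 of these 9 promoters, 1 each of Gstp1, Gclm, Txnrd1 and Nfe2l2. Of all 33469 promoters 12.1% held one, as did 16 of 80 promoters of the related genes described further on. Bases outside this window were not searched, so a gene without a match here may hold one elsewhere. The match of Nfe2l2, TGACGCCGC, began at base 39 counted from the start. Stretches of 89 bases around the other matches are shown, with the match in capitals and each sequence 5′ to 3′ along its gene.
Gstp1, chr1:210769718-210769806, minus strand: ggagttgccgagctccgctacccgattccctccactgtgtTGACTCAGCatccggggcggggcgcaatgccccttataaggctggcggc
Gclm, chr2:213031923-213032011, plus strand: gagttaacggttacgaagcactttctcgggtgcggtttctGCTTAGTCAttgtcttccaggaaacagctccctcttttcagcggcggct
Txnrd1, chr7:22755934-22756022, minus strand: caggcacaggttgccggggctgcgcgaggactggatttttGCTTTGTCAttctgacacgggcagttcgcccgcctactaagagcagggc
In Gstp1 the match contains TGACTCA, the binding letters of the AP-1 factors, which 4.63% of all promoters hold. Txnrd1 has 2 promoters in the table, and the match lies in 1 of them. A match describes these letters only, and no binding was measured.

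Array medians lay between 5.99 and 6.12 on the log2 scale. Pearson correlations between arrays ran from 0.952 to 0.989, and no array repeated another. Of 12 luminal epithelial markers, 11 passed the filter and Foxa1 fell below it, and the log2 of their summed signal was 15.14 to 15.53 in the total tumours and 14.92 to 15.47 in the biopsies. The codes that end the sample titles are consecutive within each group, and what they number is not stated. Age, way of sampling and anything those codes stand for cannot be told apart from the group. Whether different rats bore the 5 tumours is not stated in the labels. The p-values of the paired tests therefore measure the spread of the differences between late and early samples over these 5 tumours. In bulk samples, fewer cells of a type and less RNA per cell cannot be told apart. The number of arrays limits the precision.

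None of the 10 genes passed the test between total tumours and biopsies, and the 4 most positive mean differences belonged to enzymes that were higher in the total tumour in 4 of 5 pairs each. These were Akr1b8, an aldo-keto reductase that reduces reactive aldehydes, Hmox1, the inducible haem oxygenase, Nqo1, the quinone reductase, and Gclm, the modifier subunit of the enzyme that makes glutathione. Their mean log2 differences were 1.13 (SE 0.408), 0.70 (SE 0.292), 0.45 (SE 0.233) and 0.34 (SE 0.149). Gclc, the catalytic subunit of that same enzyme, had a mean log2 difference of -0.28 (SE 0.225), and the other 5 genes, Nfe2l2, Keap1, Gsr, Txnrd1 and Gstp1, lay between -0.02 and 0.04. Of the 10 genes, 0 had an adjusted p under 0.05 in limma, where the share over all genes tested was 0.0%, and adjusted p ran from 0.751 to 0.987. Only Akr1b8 had an unadjusted p under 0.05 (0.0300), against 4.17% of all genes and 6.08% of all probe sets tested. A higher mean was seen in 8 of the 10 genes, where 51.2% of all genes had one, and a lower mean in 2 of the 10, against 48.8% of all genes. The median difference was 0.04 over the 10 genes and 0.00393 over all genes. A single direction in 5 of 5 pairs was seen in 0 of the 10 genes and in 5.83% of all genes, and none had groups that did not overlap, which 0.417% of all genes did. Exact sign-flip permutation tests over the 5 pairs, two-sided, gave p from 0.125 to 0.938, where the smallest possible p is 0.0625.

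**Figure D1:**
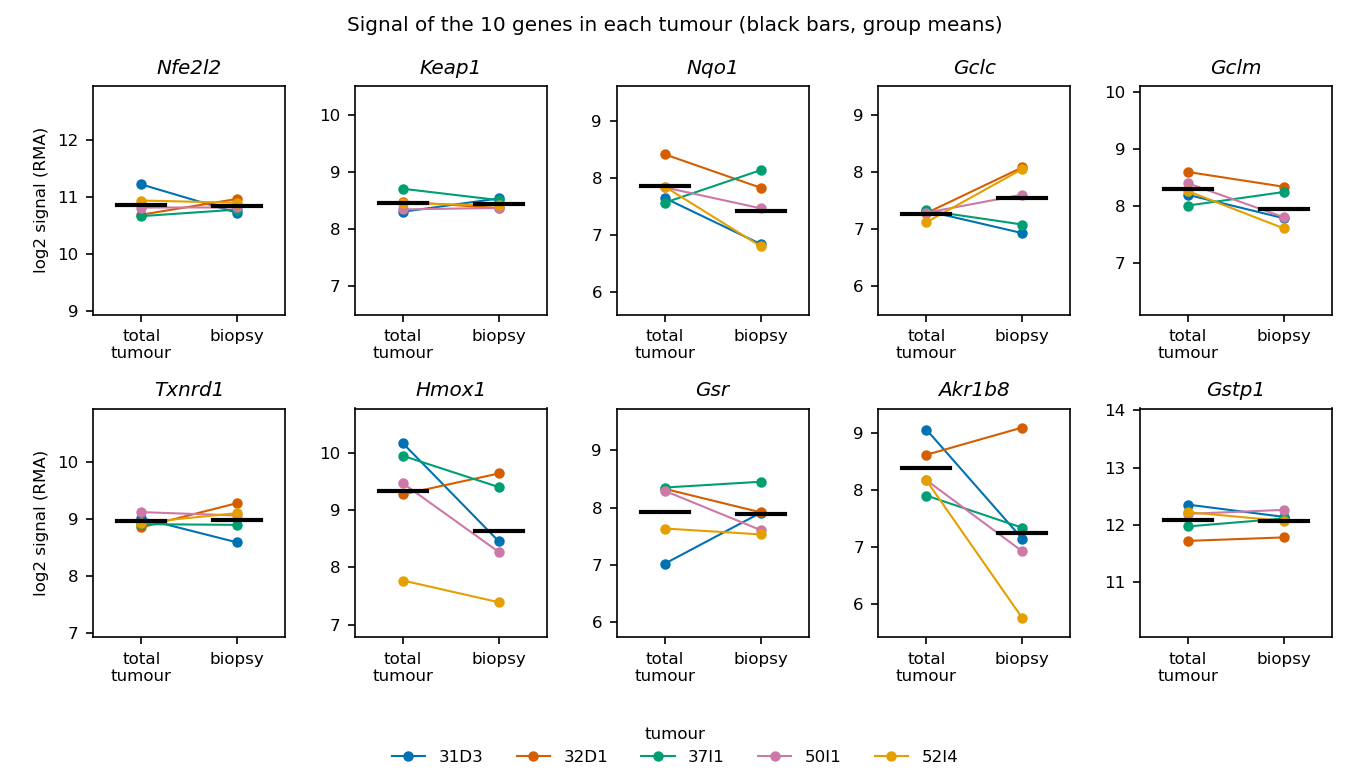
Log2 RMA signal (vertical axes, each spanning the same number of log2 units) of the 10 genes in the total tumour (left) and biopsy (right) of each of 5 tumours, joined by a line per tumour, with black bars at the group means. Gclc gathered between 7.12 and 7.33 in the total tumours, against 6.93 to 8.08 in the biopsies, while Akr1b8 spread from 5.76 to 9.10 over all arrays.

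The regulators themselves varied little. Nfe2l2, read by probe set 1367826_at, had log2 signals of 11.22, 10.69, 10.66, 10.81 and 10.94 in the total tumours, in the order 31D3, 32D1, 37I1, 50I1, 52I4 that is kept for every series of 5 values here, against 10.72, 10.96, 10.78, 10.81 and 10.90 in the biopsies. Total tumour 31D3 stood highest of the 10 arrays and total tumour 37I1 lowest, and the groups overlapped. The mean was 10.86 ± 0.23 in the total tumours and 10.83 ± 0.10 in the biopsies (SD, n = 5 each), a difference of 0.03 (SE 0.130, 95% interval -0.28 to 0.34, adjusted p = 0.982 in limma). Without tumour 31D3 the difference was -0.089.

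Keap1, the sensor that marks NRF2 for destruction, had log2 signals of 8.30, 8.48, 8.70, 8.34 and 8.44 in the total tumours, against 8.53, 8.36, 8.50, 8.37 and 8.41 in the biopsies, on probe set 1370066_at. Its highest and lowest arrays were both total tumours, 37I1 and 31D3, so the biopsies lay inside the range of the total tumours. The difference was 0.02 (SE 0.0987, 95% interval -0.22 to 0.26), and over the 10 arrays the SD was 0.117, at the 9.13th percentile of all genes tested. Its dimmer probe set, 1387810_at, differed by 0.11 (SE 0.130) and followed the brighter one loosely over the 10 arrays (Pearson r = 0.432). On the brighter Keap1 probe set, Nfe2l2 was high where Keap1 was low, with r = -0.729 and Spearman rho = -0.794 over the 10 arrays. Without the 2 arrays farthest from the median of Nfe2l2 r was -0.570. It was -0.729 in the 5 total tumours and -0.808 in the 5 biopsies, where Nfe2l2 spanned only 0.24 and Keap1 0.17 log2 units. By r with Nfe2l2, Keap1 ranked 269th from the lowest among 10792 other genes. The r of the dimmer Keap1 probe set with Nfe2l2 is not given here. These 10 arrays come from 5 tumours and are not independent, so correlations are given here as descriptions with no p. The same holds for those below.

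Glutathione is made in 2 steps, and the first, rate-limiting one is carried out by a ligase of a catalytic subunit, Gclc, and a modifier subunit, Gclm, that raises its efficiency. Gclc had log2 signals of 7.32, 7.28, 7.33, 7.29 and 7.12 in the total tumours, against 6.93, 8.08, 7.08, 7.60 and 8.05 in the biopsies, on probe set 1372523_at. The total tumours were nearly level, with an SD of 0.084, while the biopsies had an SD of 0.534 and split into 32D1 and 52I4 on the high side and 31D3 and 37I1 on the low side. Over all genes, 59.2% had the smaller SD in the total tumours, and 5 of the 10 genes did. The mean was 7.27 in the total tumours and 7.55 in the biopsies, a difference of -0.28 (95% interval -0.82 to 0.26, adjusted p = 0.880 in limma). It was -0.45 without 31D3, -0.15 without 32D1, and -0.12 without 52I4. The other Gclc probe set, 1370688_at, gave the same picture, with a difference of -0.26 (SE 0.176) and r = 0.952 with the first over the 10 arrays.

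Gclm had log2 signals of 8.19, 8.59, 8.0, 8.39 and 8.26 in the total tumours, against 7.78, 8.33, 8.24, 7.80 and 7.60 in the biopsies, on probe set 1370030_at. It was higher in the total tumour of every pair except 37I1, and the groups overlapped. The mean was 8.29 ± 0.22 in the total tumours and 7.95 ± 0.32 in the biopsies (SD, n = 5 each), a difference of 0.34, or 1.26-fold (95% interval -0.02 to 0.69, adjusted p = 0.838 in limma). The subunits of the ligase thus differed in opposite directions in 4 of 5 tumours, 31D3 being the exception. This contrast was chosen after the values were seen. The paired difference of Gclm exceeded that of Gclc by 0.0189 in 31D3, 1.06 in 32D1, 0.91 in 50I1 and 1.58 in 52I4, and fell short of it in 37I1, at -0.48. The mean of these was 0.62 (SE 0.373), and the exact sign-flip permutation test gave p = 0.1875, two-sided, where 5 pairs allow no p below 0.0625. The value is therefore a description. Over the 10 arrays the subunits had r = -0.237 and rho = -0.139.

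**Figure D2:**
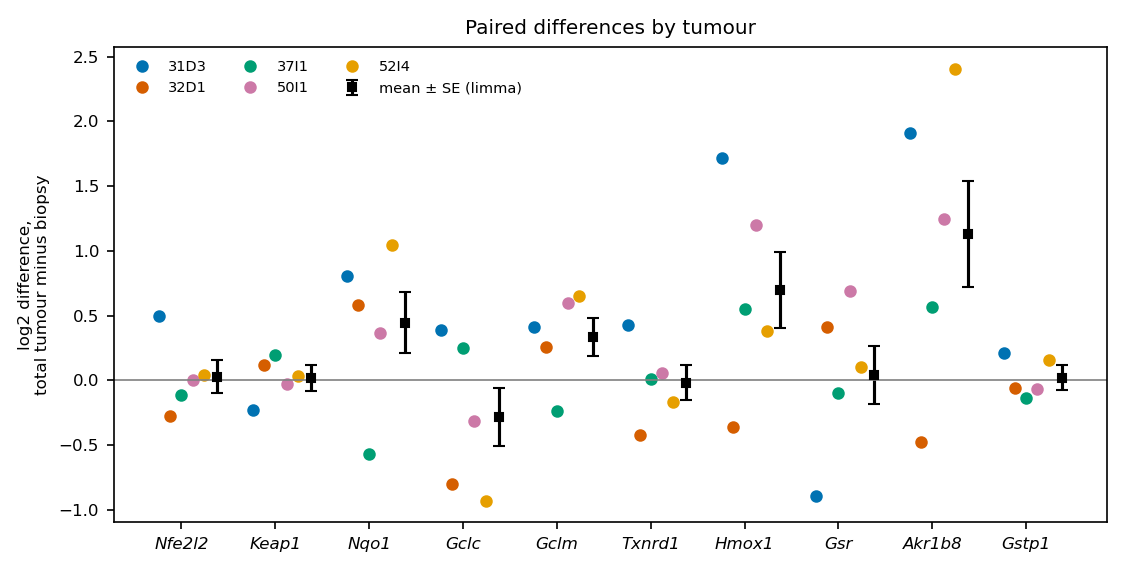
Paired log2 differences, total tumour minus biopsy (vertical axis), of the 10 genes, with a coloured point per tumour and a black square for the mean with its SE from limma. Akr1b8 reached 2.41 in tumour 52I4 and -0.48 in 32D1, and Gclc lay below 0 in the 3 tumours 32D1, 50I1 and 52I4.

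Glutathione reductase, Gsr, returns oxidised glutathione to its reduced form. Its log2 signals were 7.02, 8.33, 8.35, 8.29 and 7.63 in the total tumours, against 7.91, 7.92, 8.45, 7.61 and 7.53 in the biopsies, on probe set 1369061_at. Total tumour 31D3 was the lowest of all arrays and biopsy 37I1 the highest. The mean difference was 0.04 (SE 0.226, 95% interval -0.50 to 0.59), made of 0.69 in 50I1 and 0.41 in 32D1 against -0.89 in 31D3, and it was 0.27 without 31D3, -0.051 without 32D1 and -0.12 without 50I1. Gsr ran opposite to Nfe2l2 over the 10 arrays, with r = -0.823 and rho = -0.721, or r = -0.568 without the 2 arrays farthest from the median of Nfe2l2, and its r with Nfe2l2 ranked 63rd from the lowest among 10792 other genes. Within the groups r was -0.971 in the 5 total tumours and -0.341 in the 5 biopsies.

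The levels of Gsr and Nfe2l2 also went with several of the 12 marker lists summed here, in opposite directions. With the summed signal of the T and NK cell list, 10 of 10 markers past the filter, Gsr had r = -0.781 and Nfe2l2 r = 0.561. With that of the luminal epithelial list Gsr had r = 0.695 and Nfe2l2 r = -0.495. The T and NK cell list was not alone in this. Gsr had r = -0.556 with the fibroblast, -0.555 with the macrophage and -0.501 with the endothelial list. With the same lists Nfe2l2 had r = 0.305, 0.239 and 0.597. The T and NK cell sum, on the log2 scale, was 12.75, 10.29, 10.35, 9.54 and 9.71 in the total tumours, against 10.93, 10.62, 8.43, 11.23 and 10.59 in the biopsies, so total tumour 31D3, where Gsr was lowest, held the highest value. The part of cell content in the values of either gene, and in their correlation, was not tested.

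Txnrd1, thioredoxin reductase of the cytosol, keeps thioredoxin reduced with electrons from NADPH. Its log2 signals were 9.02, 8.86, 8.91, 9.12 and 8.94 in the total tumours, against 8.59, 9.28, 8.90, 9.06 and 9.11 in the biopsies, on probe set 1398791_at. As for Gclc, the total tumours lay close together and the biopsies spread around them, with SDs of 0.104 and 0.259. The mean difference was -0.02 (SE 0.136, 95% interval -0.35 to 0.31), and its sign turned without 32D1 (0.082), without 52I4 (0.018) and with each array centred on its median (0.013). The dimmer probe set 1386958_at had r = 0.864 with the first and a difference of -0.094 (SE 0.116). Txnrd1 and Gclc ran together over the 10 arrays, with r = 0.800 and rho = 0.782, or r = 0.739 without the 2 arrays farthest from the median of Gclc. Within the groups r was 0.153 in the 5 total tumours and 0.911 in the 5 biopsies. Both were lowest in biopsy 31D3 and highest in biopsy 32D1. The summed signal of the proliferation list, 11 of 12 markers past the filter, was 12.05 to 13.40 in the total tumours and 11.37 to 13.58 in the biopsies and had r = 0.733 with Txnrd1, and its part was not tested.

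Nqo1 reduces quinones by 2 electrons at once, which spares the cell the semiquinone radical. Its log2 signals were 7.65, 8.42, 7.57, 7.84 and 7.85 in the total tumours, against 6.85, 7.83, 8.14, 7.47 and 6.81 in the biopsies, on probe set 1387599_a_at. The biopsies of 52I4 and 31D3 were the lowest arrays and total tumour 32D1 the highest, and only in tumour 37I1 was the biopsy above its total tumour. The mean was 7.87 ± 0.33 in the total tumours and 7.42 ± 0.59 in the biopsies (SD, n = 5 each), a difference of 0.45, or 1.36-fold (95% interval -0.11 to 1.01, adjusted p = 0.846 in limma). It was 0.70 without 37I1 and 0.30 without 52I4.

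Nqo1 and Gclm made the closest pair among the 45 pairs of the 10 genes. They differed in the same direction in 5 of 5 tumours, 37I1 included, and had r = 0.918 and rho = 0.891 over the 10 arrays, or r = 0.843 without the 2 arrays farthest from the median of Nqo1. Within the groups r was 0.925 in the 5 total tumours and 0.892 in the 5 biopsies. Among the 10792 other genes Gclm ranked 15th in its r with Nqo1. The summed signal of the proliferation list had r = 0.623 with Nqo1 and 0.664 with Gclm, and its part in their likeness was not tested. Of the 45 pairs, 23 had r above 0 and 22 below, with a median of 0.0244, so the 10 genes did not share a single pattern across the arrays. Nqo1, Gclm, Akr1b8 and Hmox1 did go together over the 10 arrays. Their r ran from 0.511 (Nqo1 and Hmox1) to 0.918, with Gclm and Akr1b8 next to highest at 0.816. Among them r was 0.628 to 0.974 in the 5 biopsies. In the 5 total tumours Hmox1 had r = -0.251 with Gclm and -0.301 with Nqo1, and the other pairs among them had 0.225 to 0.925.

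**Figure D3:**
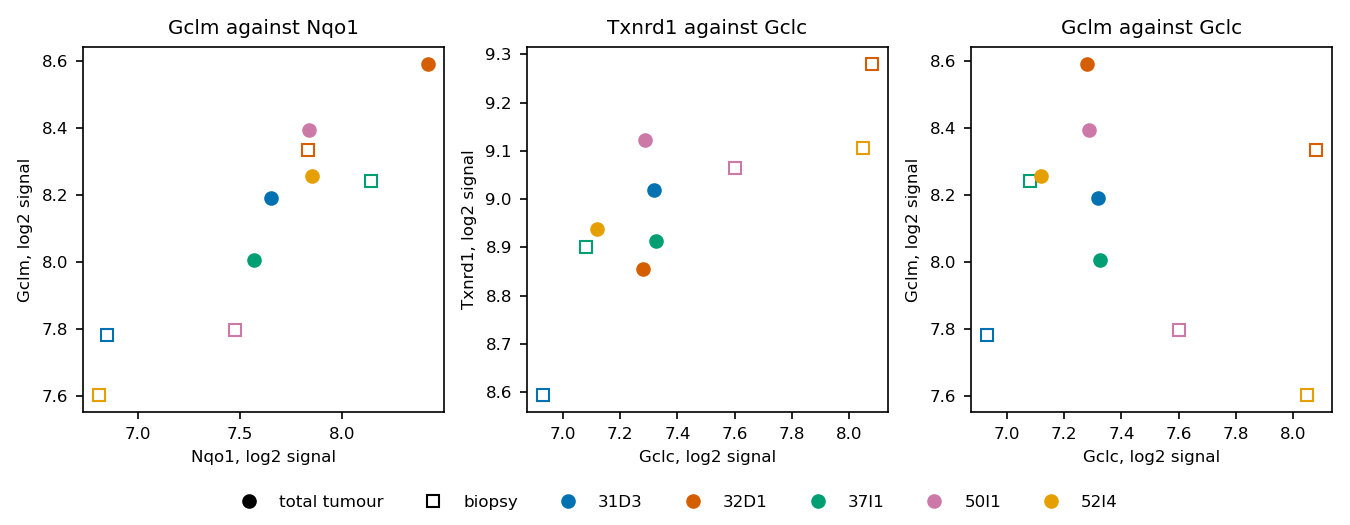
Log2 signals of 3 pairs of genes set against each other (both axes in log2 units), with filled circles for total tumours, open squares for biopsies and a colour per tumour. Gclm follows Nqo1 (r = 0.918) and Txnrd1 follows Gclc (r = 0.800), while Gclm against Gclc has r = -0.237 with the total tumours in a narrow column of Gclc.

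Akr1b8 was the most variable of the 10, with an SD of 1.04 over the arrays, at the 97.3th percentile of all genes tested. Its log2 signals were 9.06, 8.62, 7.91, 8.18 and 8.17 in the total tumours, against 7.15, 9.10, 7.34, 6.93 and 5.76 in the biopsies, on probe set 1370902_at. Biopsy 32D1 was the highest array and biopsy 52I4 the lowest, a span of 10.1-fold, while the total tumours lay within 1.15 log2 units. The paired differences were 1.91 in 31D3, 0.56 in 37I1, 1.25 in 50I1 and 2.41 in 52I4, and -0.48 in 32D1. The mean was 8.39 ± 0.46 in the total tumours and 7.26 ± 1.20 in the biopsies (SD, n = 5 each), a difference of 1.13, or 2.19-fold (95% interval 0.15 to 2.11, unadjusted p = 0.0300 and adjusted p = 0.751 in limma). Leaving out a tumour gave 0.81 (without 52I4) to 1.53 (without 32D1). Over the arrays Akr1b8 had r = -0.722 with the summed signal of the basal epithelial list, of whose 8 markers 6 passed the filter, Oxtr fell below it and Trp63 was not analysed here. That sum was 13.92 to 14.37 in the total tumours and 13.99 to 14.40 in the biopsies, and its part in the Akr1b8 values was not tested.

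Hmox1 opens the haem ring, releasing iron, carbon monoxide and biliverdin, and is induced by haem, hypoxia and oxidants as well as through NRF2. Its log2 signals were 10.17, 9.28, 9.95, 9.47 and 7.77 in the total tumours, against 8.46, 9.65, 9.41, 8.27 and 7.39 in the biopsies, on probe set 1370080_at. Tumour 52I4 was the lowest of each group, and total tumour 31D3 the highest of all arrays. The mean was 9.33 ± 0.94 in the total tumours and 8.63 ± 0.91 in the biopsies (SD, n = 5 each), a difference of 0.70, or 1.62-fold (95% interval -0.0062 to 1.40, adjusted p = 0.817 in limma). It was 0.44 without 31D3. The paired differences of Hmox1 had the sign of those of Akr1b8 in 5 of 5 tumours, and the signals had r = 0.726 and rho = 0.685 over the 10 arrays, or r = 0.757 without the 2 arrays farthest from the median of Hmox1. Within the groups r was 0.329 in the 5 total tumours and 0.897 in the 5 biopsies.

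Macrophages that take up red cells express Hmox1, and red cells carry its substrate. The macrophage list, 10 of its 12 markers past the filter and the other 2, Msr1 and Marco, not analysed here, had a log2 summed signal of 12.76 to 14.58 in the total tumours and 12.28 to 14.45 in the biopsies, with r = 0.0855 with Hmox1 over the arrays. The macrophage sum differed between total tumour and biopsy by 0.52 in 31D3, -0.14 in 32D1, 1.95 in 37I1, -1.69 in 50I1 and -0.43 in 52I4, and Hmox1 by 1.72, -0.37, 0.55, 1.20 and 0.38 in the same order. The signs were alike in 31D3, 32D1 and 37I1 and opposite in 50I1 and 52I4, and the part of macrophage content in the Hmox1 values was not tested. The erythroid list, of whose 9 genes 4 passed the filter, Epb42 fell below it and the others were not analysed here, had a sum of 10.99 to 13.34 in the total tumours and 10.82 to 12.78 in the biopsies and r = 0.571 with Hmox1 and 0.640 with Nqo1. The erythroid sum differed between total tumour and biopsy by 1.47 in 31D3, 1.47 in 32D1, -0.11 in 37I1, 0.34 in 50I1 and -0.62 in 52I4. Its sign was that of Hmox1 in 31D3 and 50I1 and the opposite in 32D1, 37I1 and 52I4. For Nqo1 the sign was opposite in 52I4 alone. The part of blood content in the Hmox1 and Nqo1 values was not tested.

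Gstp1, the pi-class glutathione S-transferase, joins glutathione to electrophiles and marks early foci in rat liver carcinogenesis. It gave log2 signals of 12.35, 11.72, 11.97, 12.19 and 12.22 in the total tumours, against 12.14, 11.78, 12.11, 12.26 and 12.07 in the biopsies, on probe set 1388122_at. Tumour 32D1 was the lowest of each group, and the groups overlapped almost wholly. The difference was 0.02 (SE 0.0968, 95% interval -0.21 to 0.25), and it was -0.029 without 31D3 and -0.014 without 52I4.

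The 10 genes differed widely in how much they varied over the arrays. The SD over the 10 arrays was above 0.5 for Akr1b8, Hmox1 (0.948) and Nqo1 (0.509), which is 3 of 10 where 17.9% of all genes tested had such an SD. The median SD of the 10 genes was 0.351 and that of all genes 0.242. In single tumours, 8 of the 10 genes were higher in the total tumour of 31D3 and 8 in that of 52I4, and 4 in that of 32D1, 5 in 37I1 and 6 in 50I1, where 48.6% to 50.4% of all genes were higher. The median over the 10 genes was 0.42 in 31D3, 0.13 in 52I4 and 0.21 in 50I1, and -0.17 in 32D1 and -0.044 in 37I1.

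The genes whose log2 signals were most like each of the 10 across the arrays, by Pearson r among 10792 others, came from many families. For Nqo1 they were Dnajc19 (r = 0.954), Mrpl1 (0.946) and Dtd2 (0.944), and for Gclm C10h16orf90 (0.953), Ndufb1 (0.952) and Atp5me (0.947). Dnajc19 is a co-chaperone of the mitochondrial inner membrane, Mrpl1 a protein of the mitochondrial ribosome, and Ndufb1 and Atp5me are subunits of respiratory complex I and of ATP synthase. For Hmox1 they were Rara, a retinoic acid receptor (0.941), Asns, asparagine synthetase (0.924), and Ndrg1, a gene induced by hypoxia (0.918). Akr1b8 was nearest to Pdcd10 (0.950), Tmem255b (0.938) and Krtcap3 (0.935). For Gclc they were Ccdc86 (0.945), Map2k3 (0.939) and P4ha2 (0.936), and for Txnrd1 Gspt1 (0.955), Pum3 (0.948) and Mcrip2 (0.948). Gsr was nearest to Cldn7, a claudin of epithelial tight junctions (0.921), Thrap3 (0.921) and Zfp106 (0.904), and Gstp1 to Cacna2d1 (0.896), Mme (0.843) and Plagl2 (0.843). Nfe2l2 was nearest to Azin1 (0.917), Bcap29 (0.915) and Lmbr1 (0.911), and Keap1 to Tmem50b (0.936), Stk25 (0.926) and Tprn (0.912). With 10 arrays some of so many genes reach a high r with any gene.

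Around these 10, 7 lists of related genes held 111 genes, of which 90 passed the filter. None passed the test in either direction, with 59 higher and 31 lower on average and a median difference of 0.07, and the lowest adjusted p in limma was 0.642. An unadjusted p under 0.05 was reached by 4 of the 90, against 4.17% of all genes.

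Among partners of NRF2 and KEAP1, of 10 tested, 3 were higher and 7 lower, with a median of -0.080. Ep300, a histone acetyltransferase and co-activator, had log2 signals of 9.34, 9.36, 9.39, 9.43 and 9.17 in the total tumours, against 9.82, 9.44, 9.74, 9.51 and 9.52 in the biopsies. Every total tumour lay below every biopsy, and the difference was -0.27 (SE 0.102, adjusted p = 0.786 in limma). Maff, a small MAF protein, had the most positive difference, 0.25 (SE 0.231). Sqstm1, the autophagy adaptor that draws KEAP1 away from NRF2, and Rbx1, a subunit of the ubiquitin ligase, differed by -0.0083 (SE 0.152) and 0.0090 (SE 0.0910).

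Glutathione supply and use showed no common direction. Of 15 genes tested, 9 were higher and 6 lower, with a median of 0.08. Gpx2, a glutathione peroxidase of epithelia, had the most positive difference, 0.45 (SE 0.451), and Oplah, which recycles oxoproline, the most negative, -0.20 (SE 0.219). The peroxidases Gpx1 and Gpx4 differed by -0.13 (SE 0.171) and 0.08 (SE 0.0974).

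Among other glutathione transferases, 12 of 17 were higher and 5 lower, with a median of 0.12. Gsta1, an alpha-class transferase, had log2 signals of 10.55, 8.62, 9.0, 8.42 and 8.85 in the total tumours, against 5.77, 8.48, 8.46, 8.10 and 8.74 in the biopsies. It was higher in 5 of 5 pairs, but most of the mean difference of 1.18 (SE 0.715, adjusted p = 0.858 in limma) came from 31D3, where the biopsy was far below the others. Hpgds, a sigma-class transferase that makes prostaglandin D2 in mast cells, had log2 signals of 6.89, 6.12, 6.18, 5.45 and 6.29 in the total tumours, against 7.78, 6.24, 6.78, 5.58 and 7.19 in the biopsies. Its difference was -0.53 (SE 0.158, adjusted p = 0.674 in limma), lower in 5 of 5 pairs. The summed signal of the mast cell list, 8 of 8 markers past the filter, was 10.73 to 13.32 in the total tumours and 11.90 to 13.90 in the biopsies and was also lower in 5 of 5 pairs, and its part in the Hpgds values was not tested. The bright Mgst1 and Gsto1 differed by 0.24 (SE 0.116) and 0.0081 (SE 0.108).

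Of 15 thioredoxin and peroxiredoxin genes, 11 were higher and 4 lower, with a median of 0.06. Sod2, the mitochondrial superoxide dismutase, had the most positive difference, 0.48 (SE 0.191, adjusted p = 0.798 in limma), in 4 of 5 pairs, and Sod3, the secreted form, the most negative, -0.073 (SE 0.162). Txn1, thioredoxin itself, differed by 0.11 (SE 0.103) and its inhibitor Txnip by 0.06 (SE 0.392). In the list on NADPH supply, whose genes need not all make NADPH themselves, 8 of 10 were higher and 2 lower, with a median of 0.09. Higher ones included Me1, malic enzyme, at 0.35 (SE 0.201), and Taldo1, transaldolase, at 0.18 (SE 0.0929). The 8 also count Me2 at 0.0083 (SE 0.243) and Idh2 at 0.016 (SE 0.134). Idh1, isocitrate dehydrogenase, differed by -0.068 (SE 0.139).

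In the list of other detoxifying enzymes and exporters, 9 of 15 were higher and 6 lower, with a median of 0.06. Ephx1, the microsomal epoxide hydrolase that takes part in turning DMBA into its diol epoxide, had log2 signals of 7.88, 8.10, 7.33, 7.86 and 7.91 in the total tumours, against 7.76, 7.92, 6.72, 7.79 and 7.73 in the biopsies. It was higher in 5 of 5 pairs, with groups that overlapped and a difference of 0.23 (SE 0.110, adjusted p = 0.844 in limma). Abcc1, an exporter of glutathione conjugates, was named after its values were seen because it and Ep300 were the 2 of 90 genes whose groups did not overlap, against 0.417% of all genes. Abcc1 had log2 signals of 8.30, 8.12, 8.10, 8.08 and 7.73 in the total tumours, against 8.69, 8.34, 8.39, 8.44 and 8.37 in the biopsies, a difference of -0.38 (SE 0.0978, adjusted p = 0.642 in limma). Osgin1, an oxidative stress-induced growth inhibitor, had the most negative difference, -0.39 (SE 0.208), and the bright Akr1a1 and Aldh2, which act on aldehydes, differed by 0.08 (SE 0.0849) and -0.17 (SE 0.219). Of 8 haem and iron genes 7 were higher, with Hp, haptoglobin, at 0.42 (SE 0.223), Fech, ferrochelatase, at 0.13 (SE 0.121) and Tfrc, the transferrin receptor, at -0.10 (SE 0.229).

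**Figure D4:**
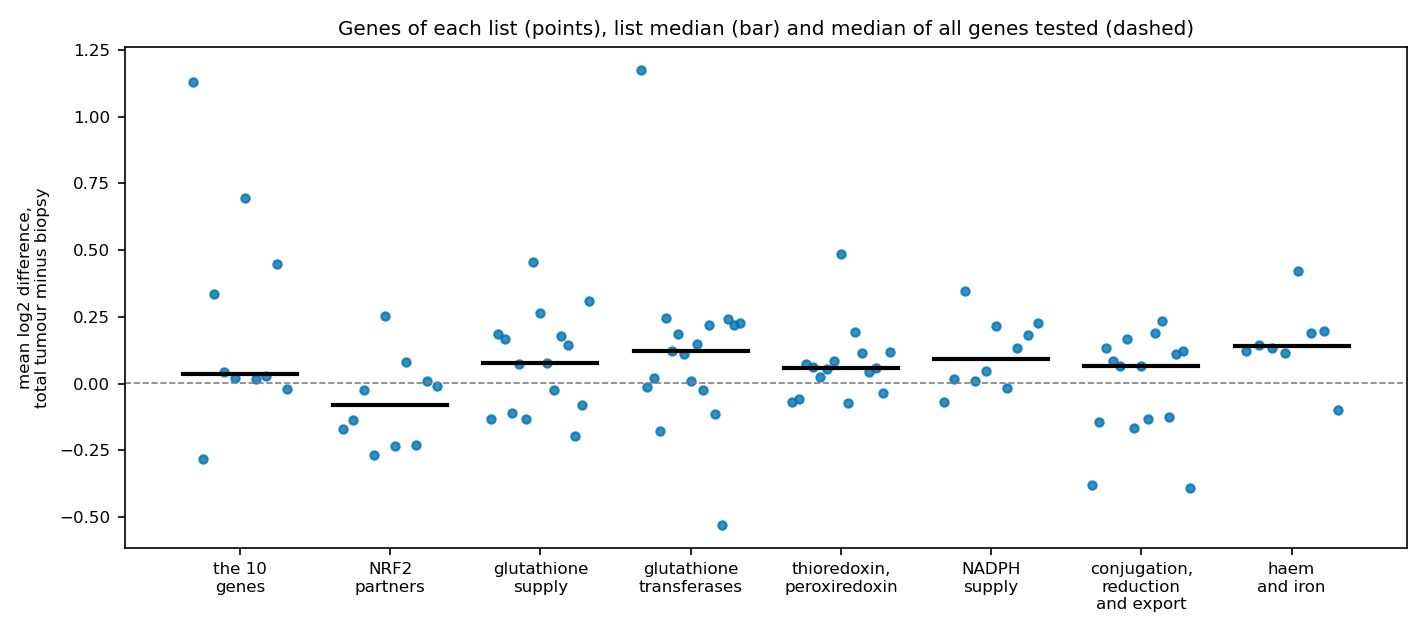
Mean paired log2 difference, total tumour minus biopsy (vertical axis), of each gene tested in the 10 genes and 7 lists of related genes, with a point per gene, a black bar at each list's median and a dashed line at the median of all genes tested. List medians lie between -0.080 (partners of NRF2) and 0.14 (haem and iron), and Akr1b8 and Gsta1 stand highest.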

How the data were processed

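RNA of 5 total tumours and of 5 biopsies was read on Affymetrix rat arrays, 10 in all. The deposited values are log2 signals, 1 per probe set and array, which the authors made by RMA, a background correction and normalization for these arrays; that step is named in the submitters' processing notes. RMA brings all arrays to one distribution, so a change shared by most transcripts is removed. Its version is not given in the sources used here.

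Control probe sets (57) and the dimmest 40% of the others by mean log2 signal (limit 5.15) were left out, since the series text names a filter near background without a value, and 18625 probe sets remained. Of 31042 probe sets that are not controls, 20826 had 1 gene listed, 436 several and 9780 none, and symbols were updated through gene identifiers. Of the 10 genes, 3 had a second probe set.

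Total tumours were compared with biopsies in limma 3.58.1 (R 4.3.3) in a model with a term for each tumour, since the series text names a paired test. Benjamini-Hochberg adjustment ran over all 18625 probe sets, with a threshold of 0.05. The pairing comes from the tumour names in the labels. Deviations from the group means correlated above 0.1 in 4 of 5 pairs and at -0.214 in 50I1. Some arrays of different tumours also correlated above 0.1, while others did not. Total tumour 31D3 had 0.3566 with biopsy 50I1, against 0.2005 with its own biopsy, and total tumour 50I1 had 0.2928 with biopsy 37I1. These correlations therefore do not settle the pairing. Exact sign-flip tests served single values. Marker lists were summed on the linear scale over genes past the filter.

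The genes and lists were chosen with earlier results of these data known. The text names the 10 genes, in each list the 2 brightest genes and those with the most positive and most negative difference, and the 3 genes most like each of the 10. On simulated data from the real means and residual spread, 75 of 100 planted log2 changes of 1 and 98 of 100 of 2 were recovered over 18625 probe sets, with 18 false calls. The noise was independent between probe sets, so these shares are no measure of power here. Alternatives were other filters, normalizations, probe set choices and tests, no block, and each tumour left out. Figures were drawn with matplotlib 3.10.9.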

Additional observations from a re-analysis of the deposited data

Results flagged for a closer look

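Each of the 10 genes was checked in the 5 total tumours and in the 5 biopsies for a highest or lowest value far from the rest, 20 groups in all, of which 1 stood out, where chance gives about 1 in 20. Gclc in total tumour 52I4, at a log2 signal of 7.12, lay below the next total tumour, at 7.28, by 0.777 of the range of the group. The range of that group was only 0.21 log2 units, against 1.15 in the biopsies.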

How the results depend on the processing

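No probe set, none of the 10 genes and none of the 90 related genes was called in any of the 14 other settings (0 in each), and the lowest adjusted p of the 10 genes in any setting was 0.586. Probe sets at an unadjusted p under 0.05 numbered 1133 in limma with the block, 869 with no replicate block, 2128 of 31042 with no filter, 581 of 12417 with the dimmest 60% left out, 570 (without 52I4) to 1530 (without 32D1) with a tumour left out, and 1013 in the methods' paired t-test. Without the replicate block the mean differences were the same by construction, with an SE of 0.510 for Akr1b8 (1.13, adjusted p = 0.999). The median difference of the 10 genes was 0.026 to 0.18 with a tumour left out. Of 90 differences of the 10 genes in settings that kept all tumours, 1 turned sign, Txnrd1 with median centring (0.013). Most of the 90 could not turn. Other filters, tests and the missing block leave mean differences the same by construction, and probe set choices can change only the 3 genes with a second probe set. Leaving out a tumour gave -0.089 to 0.10 for Nfe2l2, -0.027 to 0.080 for Keap1, -0.13 to 0.082 for Txnrd1, -0.12 to 0.27 for Gsr and -0.029 to 0.059 for Gstp1, all of which crossed 0, and the cause was not tested. Akr1b8 (0.81 to 1.53), Hmox1 (0.44 to 0.96), Nqo1 (0.30 to 0.70), Gclm (0.26 to 0.48) and Gclc (-0.45 to -0.12) kept their sign. Signals near the limit of 5.15, such as biopsy 52I4 of Akr1b8 at 5.76, are least certain.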

Other observations

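Slc7a11 and Srxn1, well-known NRF2 targets outside the naming rule, were looked at after their values were seen. Both had positive mean differences, so they do not stand for the related genes at large. In the list of other detoxifying enzymes and exporters, 6 of 15 were lower and 9 higher. The lower ones included Osgin1 and Abcc1, described above, Cbr3 (-0.13, SE 0.229) and Abcc3 (-0.14, SE 0.204). Slc7a11, the cystine carrier that feeds glutathione synthesis, had log2 signals of 6.35, 5.56, 5.89, 6.33 and 4.99 in the total tumours, against 5.35, 6.04, 4.93, 6.17 and 5.08 in the biopsies. Its difference was 0.31 (SE 0.246, adjusted p = 0.880 in limma), and total tumour 52I4 and biopsies 37I1 and 52I4 lay below the filter limit of 5.15. Srxn1, sulfiredoxin, which restores overoxidised peroxiredoxins, had log2 signals of 7.82, 7.63, 7.23, 7.10 and 7.24 in the total tumours, against 7.25, 7.47, 7.41, 6.89 and 7.04 in the biopsies. Its difference was 0.19 (SE 0.124, adjusted p = 0.873 in limma), higher in 4 of 5 pairs, with 37I1 the exception, as it was for Nqo1 and Gclm. Gpx2, named above under the rule, was higher by 2.15 in the total tumour of 31D3 and differed by -1.03 in 50I1.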
